A study of Mus musculus with 15 samples.

Results

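The genes described here are 9 receptors for the neurotransmitter glutamate: the metabotropic receptors Grm3, Grm5 and Grm7, the AMPA receptor subunits Gria1, Gria2, Gria3 and Gria4, the kainate receptor subunit Grik5 and the NMDA receptor subunit Grin3a. They are 9 of the 18193 genes that the array annotation names, and they were chosen by symbol, with all 20 of their probe sets, after Grm5 had been seen to differ between side population cells of a mouse brain tumour line and of untransformed neurospheres. That difference is therefore given as a description and not as a test. The data are 15 Affymetrix mouse arrays, 3 for each of 5 groups of cultured cells that had been sorted by flow cytometry. The side population (SP) is the fraction that pumps out a DNA dye, and the non-SP is the fraction that keeps it.

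All 5 groups carried the S100beta-verbB transgene, in which the S100beta promoter, active in glial cells, drives an active form of the EGF receptor, on a p53-/- or p53+/- background. Which p53 genotype belonged to which line or culture, and the age of the animals, were not given in the sources used here. Tumorspheres, floating cultures grown from brain tumours, came from lines 3447 and 4346. Each line was grafted into the brain of immunodeficient recipients (strain NOD.Cg-Prkdc<scid>Il2rg<tm1Wjl>/SzJ), which lack functional lymphocytes, and cells were cultured again from 3 recipients per line, so that the 3 arrays of a tumour group share 1 line. Line 3447 gave SP and non-SP cells and line 4346 gave SP cells. The neurospheres, cultures of neural stem and progenitor cells, came from 3 independent mice of the same genotypes according to one passage of the study description and from recipients of neurospheres according to another.

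Ionotropic glutamate receptors are channels built of subunits. AMPA receptors are assembled from the products of Gria1 to Gria4, and the edited Gria2 subunit makes the channel almost impermeable to calcium. Kainate and NMDA receptors are assembled in the same way from their own families. Metabotropic receptors act through G proteins: Grm5 is coupled to phospholipase C and calcium release, while Grm3 and Grm7 lower cyclic AMP. In brain, glial cells and their progenitors carry several of these receptors as neurons do, and Grm5 is best known outside neurons in immature astrocytes.

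Values below are deposited signals, in arbitrary intensity units on a linear scale, and differences are on the scale log2(normalized signal + 16), where the 16 shrinks the differences of dim genes. The median signal of an array ran from 40.0 to 89.3. Array 3 of the 3447 SP had the highest of them, and array 3 of the 4346 SP had a 3' to 5' signal ratio for actin of 5.30, against 2.49 to 3.29 on the other 14 arrays. Summed signals of 7 markers of neural stem and progenitor cells lay between 32545 and 39399 on the tumour arrays and between 38235 and 51563 on the neurosphere arrays. Every one of 9 microglia and 5 endothelium markers had a mean below 100 in every group. Of the 20 probe sets, 14 exceeded the array median on at least 3 arrays. They covered 7 genes, which were tested among 11908. The other two, Grm7 and Gria1, had no such probe set. Below, 7 genes are the ones that passed this filter, and a gene bright in only 1 group of 3 arrays passes it.

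The clearest contrast among the receptors was between cell origins. Grm5 and Grm3 were lower and Gria4 was higher in non-SP cells of line 3447 than in neurosphere non-SP cells. The arrays of this comparison did not enter the contrast that drew attention to Grm5, but the cultures are not separate. Line 3447 is the same, and neurosphere SP and non-SP arrays of equal number deviated together. Grm5 was also chosen for this split and passed the filter only through neurosphere arrays, so its p-value is no separate check. Grm3 also needed the neurosphere arrays to pass the filter, and the same limit holds for its p-value. With limma and Benjamini-Hochberg adjustment over 11908 genes, 3 of the 7 receptors passed 0.05, with 1 higher and 2 lower in the tumour cells, beside 19.4% of all genes tested. The median difference of the 7 was 0.39, and that of all genes was 0.04. On the normalized scale 4 of the 7 had no overlap between the groups, beside 38.8% of all genes. With 7 genes chosen after results were known, these counts describe the set and set it apart from nothing.

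Grm5 was bright in neurospheres and near the bottom of the scale in tumour cells. Its brighter probe set, 1456119_at, read 3983, 5846 and 4207 in neurosphere SP cells and 5756, 4785 and 5733 in neurosphere non-SP cells. In tumour cells it read 31.4, 12.3 and 68.0 in the 3447 SP, 14.0, 6.76 and 2.47 in the 3447 non-SP, and 17.5, 32.2 and 14.0 in the 4346 SP. All 6 neurosphere arrays were far above all 9 tumour arrays, with no overlap. The second probe set, 1455272_at, gave the same separation, from 1257 to 2910 in neurospheres and from 0.889 to 15.7 in tumour cells.

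In non-SP cells the Grm5 difference between line 3447 and neurospheres was -7.74 ± 0.31 (SE, n = 3 arrays per group), with an adjusted p of 1.77e-10 in limma. The second probe set gave -6.62 ± 0.36. Because the tumour signals lie near or below the added constant, the size depends on it: the difference was -9.19 with 1 and -6.22 with 64 in place of 16. For SP cells the same fit gave -6.76 ± 0.31 for line 3447 and -6.78 ± 0.31 for line 4346 against neurospheres, without a test. These differences share the neurosphere SP arrays and are not separate evidence. Counting the 7 genes in them, 4 were without overlap in line 3447 and 5 in line 4346, beside 36.0% and 36.9% of all genes, and no reading is drawn from contrasts that led to the choice of genes.

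The group means of Grm5 were 5425 ± 554 (SD, n = 3) in neurosphere non-SP and 4679 ± 1017 in neurosphere SP, and these groups overlapped. The means were 37.2 ± 28.3 in 3447 SP, 21.2 ± 9.65 in 4346 SP and 7.74 ± 5.82 in 3447 non-SP. All 9 tumour readings are below the median of their array, at the bottom of the scale, so the 3 tumour groups have no order among themselves. Between SP and non-SP neurosphere cells the difference was -0.26, with a 95% interval from -0.91 to 0.39, and it did not pass. In tumour cells Grm5 was tested only because the neurosphere arrays carried it through the filter, and no difference between tumour groups is read from such signals.

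**Figure D1:**
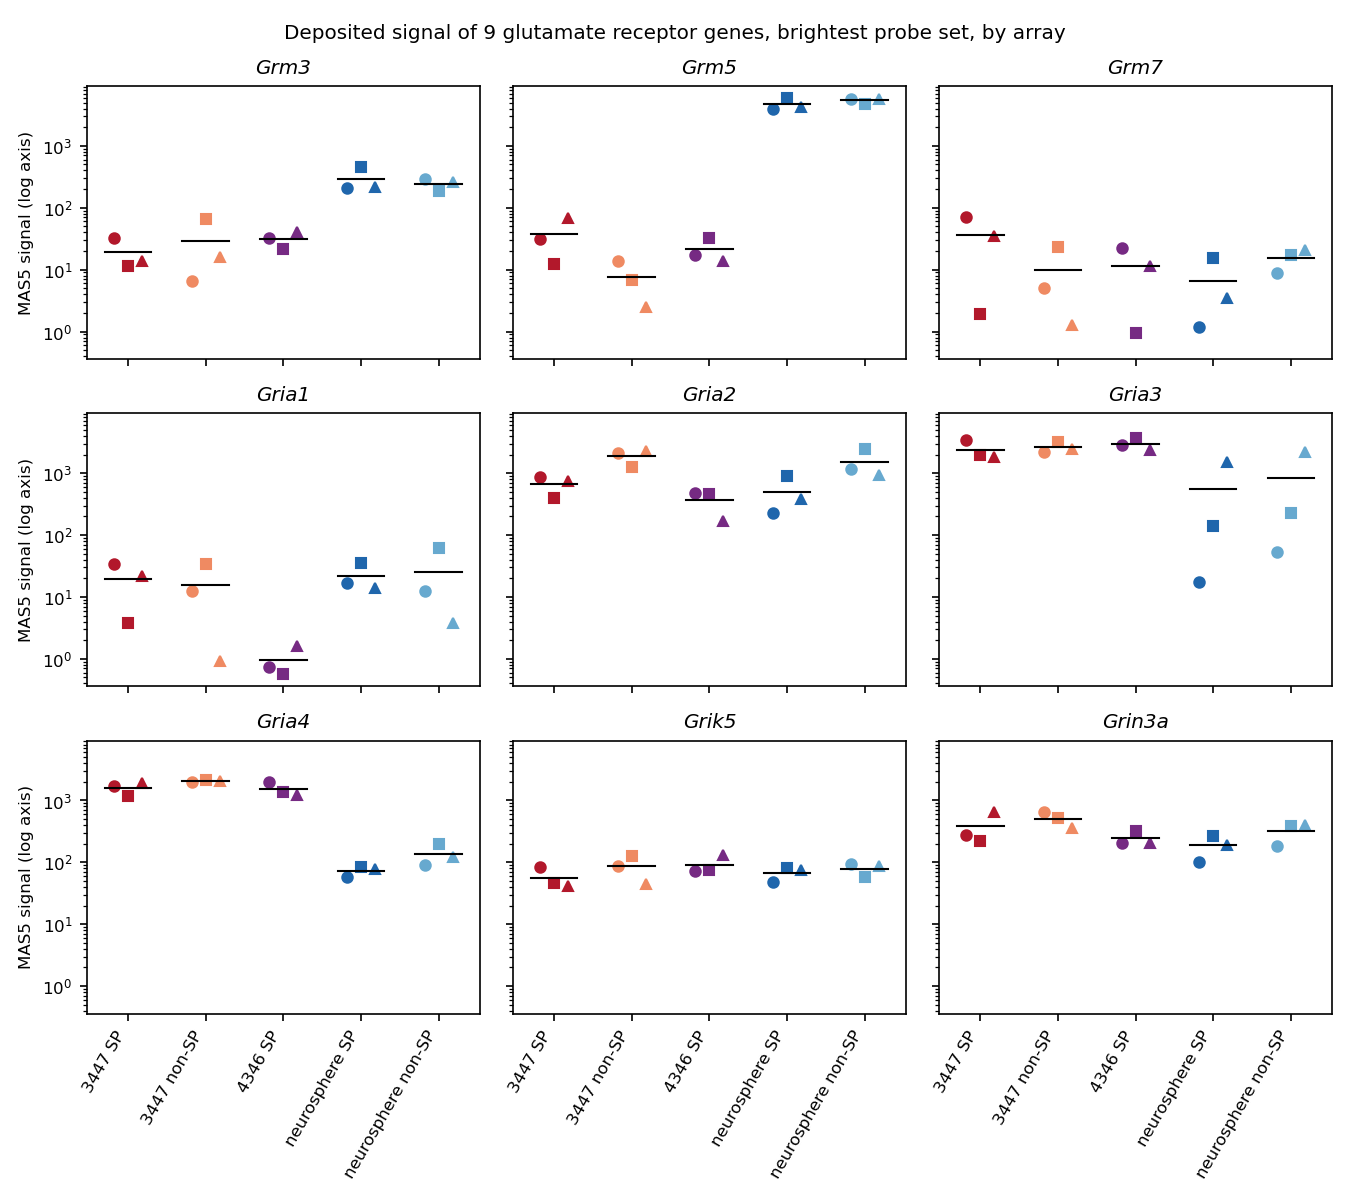
Deposited signal of the brightest probe set of each receptor gene on every array (log axis, arbitrary units), by group. A circle is array 1, a square array 2 and a triangle array 3, and the bar is the mean of 3 arrays. Grm5 lies between 3983 and 5846 on the neurosphere arrays and at or below 68.0 on the tumour arrays, and Gria4 is higher on every tumour array than on every neurosphere array.

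The genes whose log2 values followed Grm5 most closely over the 15 arrays were Slc4a4, a sodium bicarbonate cotransporter (Pearson r = 0.989), Egfr, the EGF receptor (0.987), Sez6, a neuronal membrane protein (0.986), Sel1l3 (0.986) and Myo6, an unconventional myosin (0.986). These values are a description. The 15 arrays fall into 9 tumour and 6 neurosphere arrays, and any gene with the same split scores high.

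Grm3, which lowers cyclic AMP, had the same split between neurosphere and tumour arrays at lower readings. It read 206, 450 and 214 in neurosphere SP and 290, 183 and 262 in neurosphere non-SP cells. Its tumour readings were 32.9, 11.6 and 13.5 in 3447 SP, 6.56, 65.5 and 15.9 in 3447 non-SP, and 32.1, 21.4 and 40.7 in 4346 SP. The lowest neurosphere array, at 183, was above the highest tumour array, at 65.5.

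The difference in non-SP cells was -2.51 ± 0.43, with an adjusted p of 5.22e-04 in limma, and only 1 probe set reports this gene. Grm3 would not have passed the filter without the neurosphere arrays, where it is high, so this p-value is no separate check. The described SP differences against neurospheres were -3.24 ± 0.43 for line 3447 and -2.44 ± 0.43 for line 4346. Here too the tumour readings lie near the added constant: with 1 in its place the non-SP difference was -3.13 and that of the 3447 SP -4.27. With 64 the non-SP difference was -1.67, and the SP differences were -2.11 for line 3447 and -1.75 for line 4346. SP and non-SP neurosphere cells differed by 0.24 (interval -0.66 to 1.15), and no difference between tumour groups is read at these signals. Across the 15 arrays Grm3 and Grm5 had r = 0.917, and the gene most like Grm3 was Trip4, a transcriptional coactivator subunit, with r = 0.953.

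Grm7, the presynaptic member of the group, had 3 probe sets and none above the array median on 3 arrays. Its signals ran from 0.576 to 70.6 over all probe sets and arrays, the highest of them on array 1 of the 3447 SP. These data give no level for it in any group beyond that range.

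A metabotropic receptor that fell, Grm3, and the AMPA subunit that rose, Gria4, are shown by the 250 bases before their annotated starts, since they moved in opposite directions between the origins. Of the 9 genes, 5 matched an entry of the RefSeq promoter table on build GRCm38.p6. Both windows lie on the minus strand, Grm3 at chr5:9725353-9725602 and Gria4 at chr9:4796235-4796484, and both are printed 5′ to 3′. Capitals mark the motif found in each, a GC box in Grm3 and an E-box in Gria4.
Grm3: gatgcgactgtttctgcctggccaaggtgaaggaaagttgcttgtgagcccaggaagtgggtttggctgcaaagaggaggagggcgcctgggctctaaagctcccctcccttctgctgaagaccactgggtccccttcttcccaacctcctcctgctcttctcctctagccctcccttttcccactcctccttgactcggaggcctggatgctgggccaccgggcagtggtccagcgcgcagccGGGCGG
Gria4: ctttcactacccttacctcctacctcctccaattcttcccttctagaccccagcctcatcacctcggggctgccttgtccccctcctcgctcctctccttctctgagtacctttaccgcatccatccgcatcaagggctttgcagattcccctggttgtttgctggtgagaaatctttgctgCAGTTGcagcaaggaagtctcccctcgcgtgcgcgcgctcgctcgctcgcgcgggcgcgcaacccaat
The motifs searched on both strands were the E-box CANNTG, the GC box GGGCGG and a SOX motif ACAAAG, present in 66.2%, 32.7% and 16.5% of 32851 promoter windows of the same length. The Grm3 window held 1 GC box, 0 E-boxes and 0 SOX motifs, with a GC content of 62.4% and 8 CpG. The Gria4 window held 1 E-box, 0 GC boxes and 0 SOX motifs, with a GC content of 58.8% and 16 CpG. The windows thus differ in CpG number and in the motif they hold. A match is a description of letters and not evidence of binding.

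Gria4, an AMPA subunit prominent in the immature brain, was the receptor that rose in tumour cells. Its brightest probe set, 1435722_at, read 1699, 1193 and 1891 in 3447 SP, 2014, 2106 and 2072 in 3447 non-SP, and 1987, 1373 and 1237 in 4346 SP. In neurospheres it read 57.0, 83.3 and 77.8 in SP and 90.0, 196 and 123 in non-SP cells. Every tumour array was above every neurosphere array.

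The non-SP difference was 3.83 ± 0.27, with an adjusted p of 6.04e-08 in limma. The other Gria4 probe sets, 1440891_at and 1421351_at, are dimmer and moved less, by 1.88 ± 0.37 and 1.98 ± 0.43, with adjusted p of 0.00131 and 0.00348 over all kept probe sets. Both read below the array median on every neurosphere array and passed the filter only through tumour arrays. Their p-values are therefore no separate check. With the mean of its probe sets Gria4 differed by 2.56 rather than 3.83. The described SP differences were 4.16 ± 0.27 for line 3447 and 4.08 ± 0.27 for line 4346, or 2.56 and 2.45 when the probe sets were averaged. Over the 15 arrays Gria4 and Grm5 had r = -0.976, and the gene most like Gria4 was Dkk3, a secreted protein of the Dickkopf family, with r = 0.988.

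Within each origin the brightest Gria4 probe set was lower on every SP array than on any non-SP array, but the difference did not pass. It was -0.38 ± 0.27 in line 3447 (adjusted p = 0.828) and -0.71 ± 0.27 in neurospheres (adjusted p = 1.00), both in limma, and the dimmer probe sets did not show the separation. The SP cells of the lines differed by 0.082 (interval -0.49 to 0.65).

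**Figure D2:**
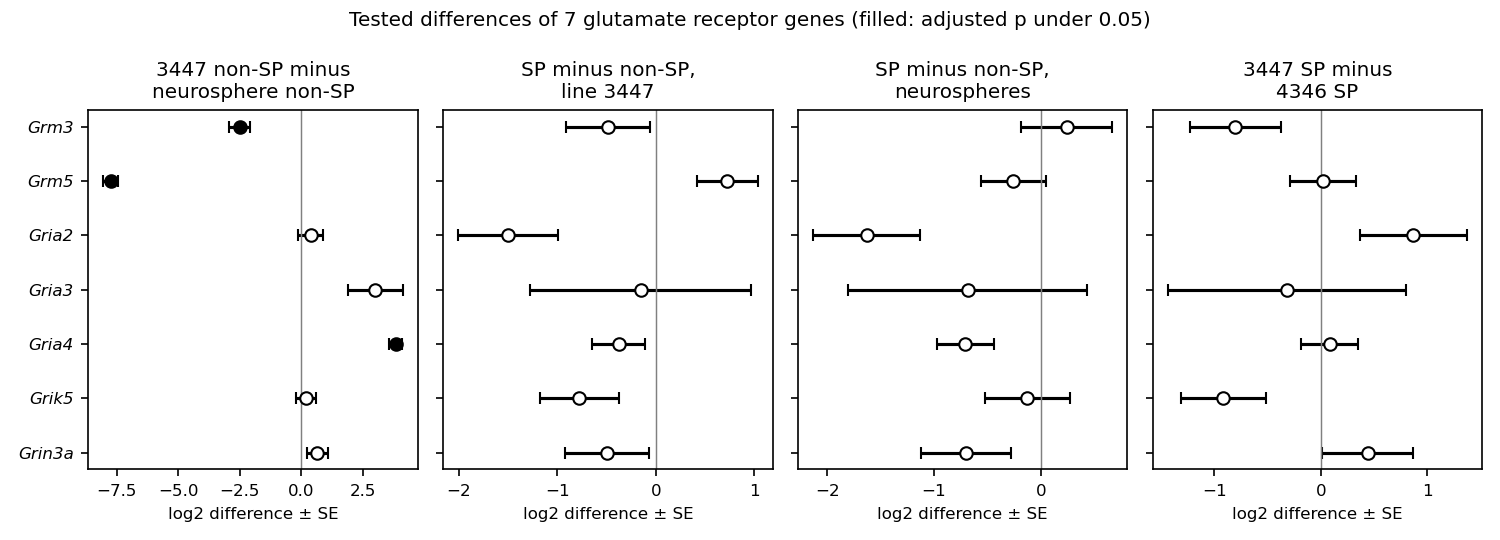
Difference of each tested receptor gene in each comparison (x axis, log2 scale, own range per panel), as the estimate ± SE. Filled points had an adjusted p under 0.05. In the non-SP comparison Grm5 lies at -7.74 and Grm3 at -2.51, and Gria4 lies at 3.83. The other panels hold open points alone.

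Gria3, a further AMPA subunit, was bright on all 9 tumour arrays and uneven among neurospheres. Tumour arrays read 3450, 1987 and 1795 in 3447 SP, 2166, 3213 and 2465 in 3447 non-SP, and 2872, 3754 and 2373 in 4346 SP. Neurosphere SP arrays 1, 2 and 3 read 17.4, 139 and 1489, and the non-SP arrays read 52.3, 223 and 2193. The array numbered 3 was by far the highest in both neurosphere groups, and in non-SP cells its deposited signal lay within the tumour range. After normalization it was just below all 3 arrays of the 3447 non-SP, at 11.08 against 11.09 for the lowest of them on the log2 scale.

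The non-SP difference of Gria3 was 3.01 ± 1.12 with an adjusted p of 0.0725 in limma, so it did not pass. Its standard error of 1.12 was the largest among the 7 receptors. Without neurosphere non-SP array 3 the difference was 4.39 with an adjusted p of 0.00604, and without both neurosphere arrays numbered 3 it was 4.39 with 5.50e-05. It also passed without neurosphere SP array 1 (adjusted p = 0.0338) or SP array 3 (0.0211), with arrays centred on their medians (3.13, 0.0216), with the mean of its probe sets (2.23, 0.0402) and with the array number as a replicate block (3.01, 0.0453). That block joins arrays of different origins by number alone, and the labels give no such pairing, so no weight is put on it. Omitting 1 array at a time gave 1.92 to 4.39, with adjusted p from 0.00604 to 0.302. The dimmer probe set 1420563_at differed by 1.45 ± 0.52 (adjusted p = 0.0621). The described SP differences were 3.54 ± 1.12 for line 3447 and 3.86 ± 1.12 for line 4346. SP and non-SP cells differed by -0.15 (interval -2.52 to 2.22) in line 3447 and by -0.68 (interval -3.05 to 1.69) in neurospheres. The neurosphere interval holds the spread between cultures: within the 3 numbers the SP array differed by -1.09, -0.45 and -0.51, and with the block among neurospheres alone the difference had an SE of 0.27 and an adjusted p of 0.702. The dimmer probe set differed the other way, by 0.47, 0.80 and 0.36. The gene most like Gria3 over the arrays was Ufsp2, a protease of the UFM1 system, with r = 0.974.

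**Figure D3:**
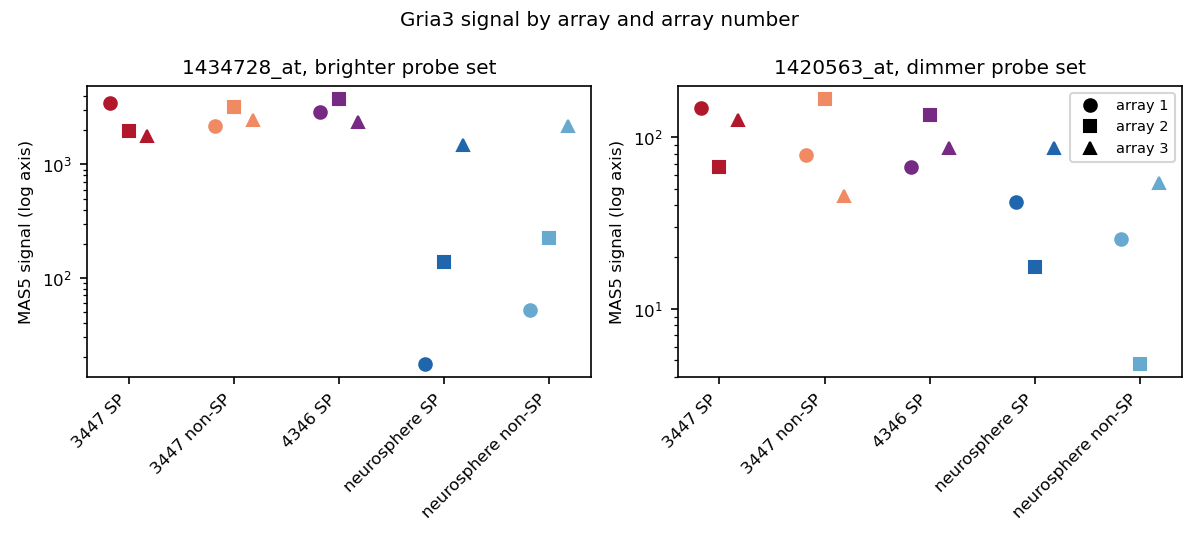
Deposited Gria3 signal on every array for its brighter and its dimmer probe set (log axes, arbitrary units), with the array number as the marker shape. For the brighter probe set the neurosphere arrays numbered 3 read 1489 and 2193, while those numbered 1 read 17.4 and 52.3.

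For Gria2, the subunit that limits calcium entry, the brightest probe set had larger estimates by dye exclusion than by origin. None of those tested passed in the main fits. In line 3447 the brightest probe set, 1421970_a_at, read 882, 402 and 756 in SP and 2155, 1261 and 2294 in non-SP cells. In neurospheres it read 224, 896 and 379 in SP and 1184, 2461 and 921 in non-SP cells. The 4346 SP, which has no non-SP partner, read 476, 456 and 171. In both origins the highest SP array was below the lowest non-SP array, by a narrow gap in neurospheres, where 896 faced 921.

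The SP minus non-SP difference of Gria2 was -1.50 ± 0.50 in line 3447 (unadjusted p = 0.00892, adjusted p = 0.496) and -1.63 ± 0.50 in neurospheres (unadjusted p = 0.00521, adjusted p = 0.955), both in limma. Neither passed. In these comparisons 0 of the 7 receptors passed, beside 0.00840% of all genes in line 3447 and 0.0168% in neurospheres, while 2 of 7 had an unadjusted p under 0.05 in each, among 859 and 428 of all genes. In line 3447 the second of these is Grm5, whose signals there are at the bottom of the scale. Of the 7, 2 were lower without overlap in each origin, Gria2 and Gria4, beside 8.44% and 3.23% of all genes. In each origin 6 of 7 receptors lay below 0, with medians of -0.49 and -0.68 against -0.014 and 0.044 for all genes. Among the 6, Grm3 in line 3447 rests on signals at the bottom of the scale. Gria3 in both origins, and Grik5 in neurospheres, changed sign when certain single arrays were left out. The SP effects of the origins differed by 0.13 ± 0.71 for Gria2, and 0 of 7 receptors passed that test, beside 0% of all genes, with 1 member and 266 genes at an unadjusted p under 0.05. That member, Grm5, rests on the same floor signals.

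The fits were also averaged over the origins, a comparison added after these values had been seen. Gria2 was lower in SP cells by -1.57 ± 0.36 on the log2 scale, with an adjusted p of 0.125 in limma, so 0 of 7 receptors passed, beside 0.168% of all genes, and 2 of 7 had an unadjusted p under 0.05, among 1046 of all genes. Neurosphere arrays of the same number deviated together, though the labels state no pairing. With equal numbers as a replicate block among neurospheres the adjusted p in limma was 0.0190, where 0.176% of all genes were called lower. Within that block the adjusted p ran from 0.00268 to 0.0975 when 1 array was left out, and the call was lost in 7 of 15 cases: without 3447 SP array 2 (0.0562), without 3447 non-SP array 3 (0.0540), without neurosphere SP array 1 (0.0972) or 2 (0.0625), and without neurosphere non-SP array 1 (0.0975), 2 (0.0624) or 3 (0.0504). With arrays centred on their medians and no block the difference was -1.73 with an adjusted p of 0.0360. The Gria2 difference therefore passes under some of these settings and not under others.

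Within each of the 3 neurosphere numbers, all 3 Gria2 probe sets were lower in the SP array, and the brightest differed by -2.22, -1.46 and -1.21. With the neurosphere block, the averaged difference was -1.57 (adjusted p = 0.0247), -1.28 (0.0738) and -0.73 (0.238) for 1421970_a_at, 1434146_at and 1453098_at, adjusted over all kept probe sets. The middle one overlapped between SP and non-SP cells of line 3447, where SP arrays reached 919 and a non-SP array read 797, and was separated in neurospheres, at 158 to 522 against 693 to 1278. The dimmest of them overlapped between SP and non-SP cells in both origins, at 130 to 337 against 217 to 357 in line 3447 and at 120 to 245 against 205 to 814 in neurospheres.

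**Figure D4:**
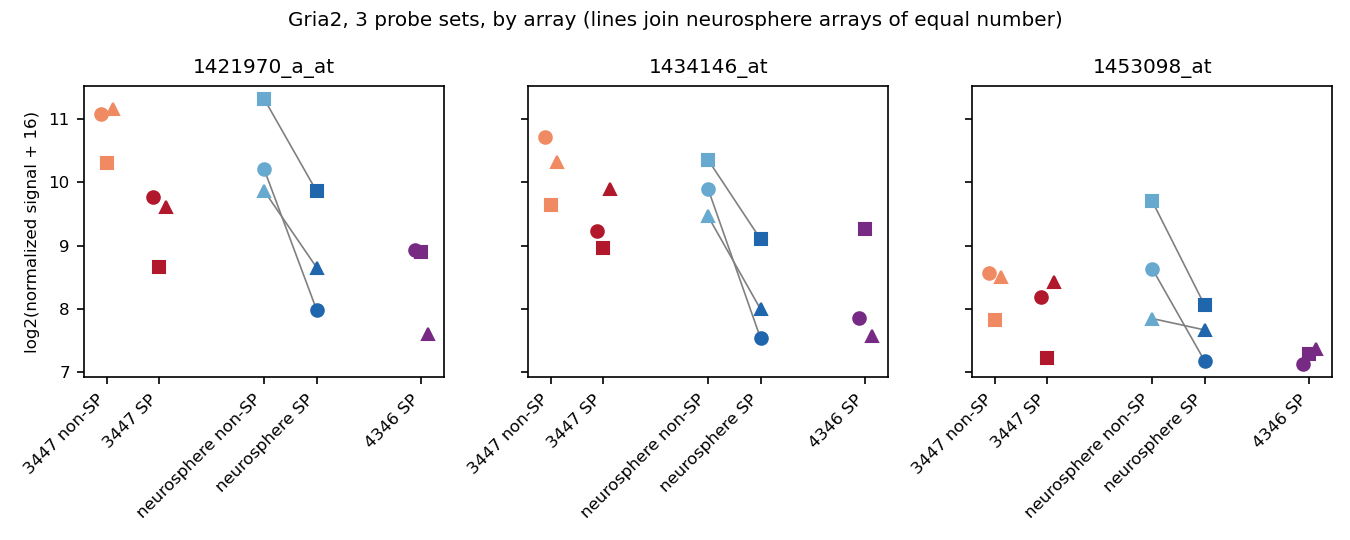
Gria2 on every array for its 3 probe sets, as log2(normalized signal + 16), by group. A circle is array 1, a square array 2 and a triangle array 3, and lines join neurosphere arrays of equal number. Each line falls from non-SP to SP, and for 1421970_a_at the deposited SP signals of line 3447 and of neurospheres are at or below 896 and the non-SP signals at or above 921. In line 3447 the sorted fractions overlap for 1434146_at, and for 1453098_at they overlap in both origins.

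Between origins Gria2 overlapped: non-SP cells differed by 0.39 ± 0.50 (adjusted p = 0.653 in limma), and SP cells by 0.52 for line 3447 and -0.35 for line 4346 as a description. Between the SP cells of the lines the difference was 0.87 (interval -0.20 to 1.94). The gene most like Gria2 over the arrays was Pcna, a DNA replication clamp, with r = 0.919. Of 8 markers of oligodendrocyte progenitors, 1 was above 0 in SP against non-SP cells of line 3447 and 0 in neurospheres, with medians of -0.55 and -0.89, and 0 of 8 passed in either. Their summed signals were 12381 to 17469 in SP against 19274 to 22225 in non-SP cells of line 3447, and 7121 to 12841 against 9544 to 13592 in neurospheres, where the fractions overlapped. Their part in the Gria2 values was not tested. In such bulk samples, fewer cells of a type and less RNA per cell cannot be told apart.

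Gria1, the remaining AMPA subunit, had 2 probe sets, both under the filter. Their signals ran from 0.555 to 60.9 over all arrays, and it was not tested. On 1448972_at the 4346 SP read 0.727, 0.570 and 1.61, among the lowest values, at the bottom of the scale where signals have no order.

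Grik5, a kainate subunit that binds glutamate with high affinity, stayed low and even, from 40.8 to 130 on the 15 arrays. It read 82.7, 46.2 and 40.8 in 3447 SP and 72.4, 74.2 and 130 in 4346 SP. That was its lowest unadjusted p between the lines, with a difference of -0.91 ± 0.40 (unadjusted p = 0.0359, adjusted p = 0.263 in limma), and the deposited signals overlapped. On the normalized scale Grik5 and Grm3 were lower in line 3447 without overlap, 2 of the 7 beside 10.6% of all genes, and the Grm3 readings there are at the bottom of the scale. For Grik5 the gap was narrow, at most 6.43 against at least 6.63 on the log2 scale. Its difference in non-SP cells by origin was 0.19 (interval -0.66 to 1.04). In the comparison of the lines 0 of 7 receptors passed, beside 1.65% of all genes, and Grik5 was the 1 member with an unadjusted p under 0.05, among 1981 genes. The gene most like it was Haghl, with r = 0.838.

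Grin3a, an NMDA subunit that lowers calcium flow through the channel, had 3 probe sets, and the brightest, 1436575_at, read 103 or more on all 15 arrays. The second, 1438866_at, ran from 16.1 to 228. The third, 1458378_at, ran from 0.741 to 30.6 and did not pass the filter. The brightest read 279, 224 and 657 in 3447 SP, 648, 511 and 357 in 3447 non-SP, and 203, 322 and 207 in 4346 SP. In neurospheres it read 103, 269 and 192 in SP and 182, 389 and 404 in non-SP cells. The groups overlapped in each comparison tested, with differences of 0.65 ± 0.43 for non-SP cells by origin (adjusted p = 0.330), -0.50 ± 0.43 between the sorted fractions of line 3447 and -0.70 ± 0.43 between those of neurospheres (adjusted p = 0.874 and 1.00, all in limma). The gene most like it was Frmd5, with r = 0.860.

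Genes around the receptors were read from lists of the pathway, drawn up with earlier results of these data known. For the non-SP comparison by origin, 1 of 8 other glutamate receptors tested was higher and 0 lower, with a median of 0.19. Every count of these lists stands beside 11.2% of all genes higher and 8.21% lower, or 19.4% in all, and a share near that says nothing particular about a list. It was Grik3, a kainate subunit, at 922 ± 183 in 3447 non-SP against 60.7 ± 52.2 in neurosphere non-SP cells, a difference of 3.98 ± 0.56 (adjusted p = 9.05e-05 in limma). The Grik3 readings were 1066, 716 and 984 against 107, 71.0 and 4.17, without overlap. Of the 17 entries of that list 13 had a probe set, and the others were not analysed here.

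Among 16 tested auxiliary subunits and partners of AMPA and kainate receptors, 1 was higher and 5 were lower, with a median of -0.42, beside 19.4% of all genes. Cacng5, which modulates AMPA receptor gating, fell by 4.55 on the log2 scale (SE 0.45, adjusted p = 2.58e-06), from 749 ± 258 in neurosphere to 19.1 ± 26.2 in 3447 non-SP cells. Nptx2, a secreted pentraxin that clusters AMPA receptors, differed by -2.87 ± 0.52 (adjusted p = 9.54e-04). Cacng8, an AMPA receptor trafficking subunit, differed by -1.69, Nptx1, a related pentraxin, by -1.49, and Neto2, a kainate receptor partner, by -1.25, with adjusted p of 0.00773, 0.0274 and 0.0175. Shisa7 was higher by 1.36 (adjusted p = 0.0475), at 46.5 ± 18.2 against 11.0 ± 14.0. All of these p-values are from limma over 11908 genes. Cacng5 and Nptx2 passed the filter only through neurosphere arrays and Shisa7 only through tumour arrays, so their p-values are no separate check.

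Of 15 postsynaptic scaffold and kinase genes 1 was higher and 2 were lower, with a median of -0.50, a share near the 19.4% of all genes. Camk2b, a subunit of the calcium/calmodulin kinase, read 696 ± 340 in 3447 non-SP and 7262 ± 805 in neurosphere non-SP cells (-3.53 ± 0.42, adjusted p = 1.70e-05 in limma). Dlgap1, a scaffold of the postsynaptic density, read 983 ± 440 against 108 ± 56.3 (3.02 ± 0.48, adjusted p = 2.88e-04). Dlg1 was lower by a smaller step, -0.66 (adjusted p = 0.0373). Thus the kinase and the scaffold moved in opposite directions in the same cells.

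Of 15 genes of metabotropic receptor signalling 2 were higher and 2 lower, with a median of -0.33, beside the same 19.4%. Gnao1, a G protein alpha subunit of the inhibitory class, read 665 ± 141 against 77.2 ± 25.9 (2.91 ± 0.28, adjusted p = 1.77e-06 in limma), and Rgs2, which shortens Gq signalling, was higher by 1.24 (adjusted p = 0.00239). Prkcb, a protein kinase C, differed by -1.32 and Gnai1 by -0.66 (adjusted p = 0.0145 and 0.0458). Of 12 genes of glutamate supply and uptake 2 were higher and 3 lower, with a median of -0.26, beside the same 19.4%. Slc1a1, a glutamate transporter typical of neurons, was higher by 2.47 (adjusted p = 4.51e-06), at 7065 ± 593 against 1265 ± 201, and Slc38a2, a glutamine transporter, by 0.70 (0.00849). Slc1a3, the transporter typical of radial glia and astrocytes, differed by -2.40 (4.97e-06), Slc7a11, the cystine/glutamate exchanger, by -1.68 (0.0289) and Slc38a3 by -1.35 (0.0227). Of 3 genes of the family that edits receptor transcripts, Adarb2, for which no editing activity is known, was higher by 1.87 (adjusted p = 0.0123), at 53.1 ± 21.1 against 3.24 ± 0.924. The neurosphere readings of Adarb2 are at the bottom of the scale, and the difference was 3.66 or 0.83 with 1 or 64 in place of 16. The same holds for Shisa7 (2.68 or 0.61), Nptx2 (-4.72 or -1.58), Cacng5 (-5.93 or -3.25) and Grik3 (4.71 or 3.09), which are dim on one side. The editing enzyme of the Gria2 transcript, Adarb1, read 532 ± 262 against 598 ± 135. Of the 20 list genes that passed in this comparison, 10 passed under every alternative. Shisa7 lost the call in 18 of 26 alternatives, Gnai1 in 16 and Dlg1 in 9, and each of the other 7 in 1 to 5.

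**Figure D5:**
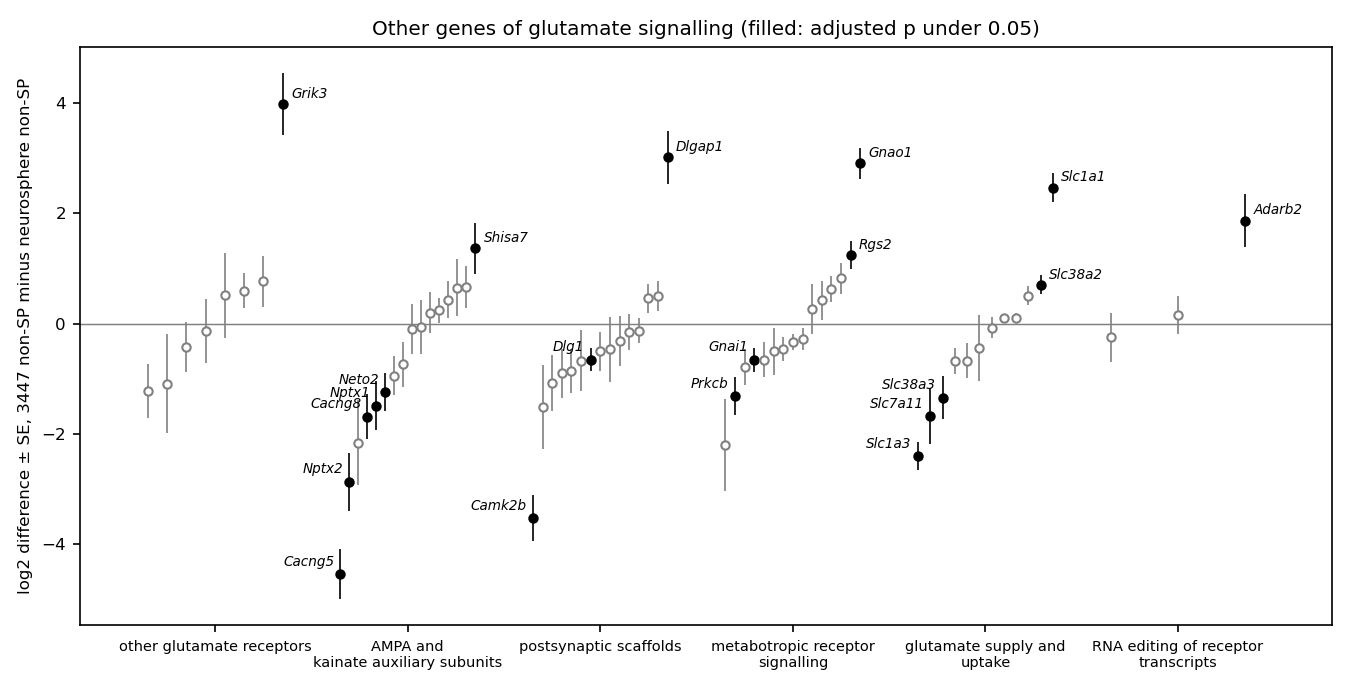
Difference (log2 scale, ± SE) between 3447 non-SP and neurosphere non-SP cells for each tested gene of 6 lists around the receptors, ordered by size within each list. Filled points had an adjusted p under 0.05 and are named. Grik3, Dlgap1 and Gnao1 lie highest in their lists, and Cacng5 and Camk2b lowest.

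Between SP and non-SP cells, 0 genes of these lists passed in line 3447. In neurospheres 1 gene passed, Slc1a1, at -1.75 ± 0.26 (adjusted p = 0.0259 in limma), with 207, 411 and 487 in SP and 1481, 1083 and 1231 in non-SP cells. That call was lost in 15 of 27 alternatives, with adjusted p from 0.0178 to 1.00: among them averaging its probe sets (-1.31, 0.138), arrays centred (0.0795), and leaving out any array of the 3447 or neurosphere non-SP, 4346 SP array 2, or neurosphere SP array 1 or 2. Between the SP cells of the lines 1 gene passed, Shisa9, an AMPA receptor modulator, which was lower in line 3447 by -1.49 ± 0.34 (adjusted p = 0.0341), at 60.4, 78.5 and 103 against 165, 200 and 265. It lost the call in 12 of 26 alternatives, with adjusted p from 0.0156 to 0.247: among them the deposited scaling (-1.23, adjusted p = 0.116), and leaving out any 3447 SP array, 3447 non-SP array 3, or 4346 SP array 2 or 3. Neto1, a kainate and NMDA receptor partner, resembled Gria2: it read 373 ± 185 in SP and 1034 ± 56.4 in non-SP cells of line 3447, and 301 ± 147 and 1117 ± 388 in neurospheres. Averaged over the origins it differed by -1.71 ± 0.34, with an adjusted p of 0.0604 without and 0.0187 with the neurosphere block, and it was singled out after its values were seen. Slc1a1 passed the averaged comparison, at -1.03 ± 0.18, with an adjusted p in limma of 0.0451 without and 0.0190 with the block. The shares of all genes called there were 0.168% and 0.798%. That average holds the same neurosphere arrays as the Slc1a1 call above.

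Markers of glial cell types moved with the difference in origin. In the non-SP comparison 4 of 8 oligodendrocyte progenitor markers were higher and 1 lower (median 1.68), 3 of 3 tested oligodendrocyte markers were higher (median 4.23), and 1 of 9 astrocyte markers was higher and 4 lower (median -2.13). Of 8 tested neuron markers 1 was higher and 3 lower (median -0.92). Of 7 neural stem and progenitor markers 0 were higher and 2 lower (median -0.72). Of 4 tested pericyte and smooth muscle markers 1 was higher and 0 lower (median 0.029). These counts stand beside 11.2% of all genes higher and 8.21% lower. Summed over 10 genes, astrocyte markers read 8984 to 18066 on the tumour arrays and 23920 to 45084 on the neurosphere arrays. Summed over 7 genes, oligodendrocyte markers read 16263 to 26862 and 3395 to 7012. Of these 7, 4 had a mean below 100 in every tumour group and 5 in every neurosphere group. The sums thus rest on few genes. Grm5, Grm3 and the astrocyte sums, which include Slc1a3, were thus high on the same arrays. Gria4, Grik3 and the oligodendrocyte sums were high on the others. The oligodendrocyte progenitor sums overlapped between the origins, down to 12381 in tumour cells and up to 13592 in neurospheres. The part of cell type in the receptor values was not tested. Transformation, line and, where the neurospheres were not grafted, passage through a host brain differ together between the origins and cannot be told apart.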

How the data were processed

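Intensities deposited by the authors were used: MAS5 signals on a linear scale, made in Affymetrix Expression Console per the submitters' processing notes, with versions not given in the sources used here. Per the labels, RNA was isolated with an RNeasy Micro kit, amplified with an Ovation Pico kit and labelled with biotin. Amplification from small amounts can add spread between arrays.

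The array medians differed by a ratio of 2.23, above the limit of 1.5, so arrays were quantile normalized, and log2(value + 16) was taken. Of 45037 probe sets that are no controls, 26256 lay above their array's median on at least 3 arrays. Each gene was represented by its brightest kept probe set, which gave 11908 genes. Two-sided moderated tests came from limma 3.58.1 (R 4.3.3) on 5 group means over 15 arrays, with a mean-variance trend, 10 residual degrees of freedom and Benjamini-Hochberg adjustment over all genes at 0.05. The code was tested on simulated data. For arrays, their number limits the precision.

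Replicates are the labels' biological replicates. Deviations from group means of SP and non-SP arrays with equal numbers correlated at 0.58, 0.52 and 0.62 in neurospheres. Those arrays were treated as pairs in the block among neurospheres, though the labels state no pairing. In line 3447 equal numbers correlated at -0.22, -0.25 and -0.12. There SP arrays 1, 2 and 3 correlated at 0.37, 0.30 and 0.22 with non-SP arrays 2, 3 and 1. The full replicate block joins equal numbers in line 3447 as well, so no weight is put on it. The genes, lists and tests were chosen with earlier results of these data known. All members were named, with values from all their probe sets, though not every probe set by its number. Of each list, up to 4 genes with the smallest p per comparison and the genes a result turns on were named. So were the 5 genes most like Grm5 and the gene most like each other member, by Pearson r. Added after seeing the data were the averaged comparison, the block among neurospheres alone, and fits without both neurosphere arrays numbered 3 or without the 2 arrays that stand apart.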

Additional observations from a re-analysis of the deposited data

How the results depend on the processing

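The count of receptors past the threshold in the 5 tested comparisons stayed at 0, or at 3 to 4 for non-SP cells by origin, under every alternative run, including the replicate block, with which that count was 4 because Gria3 joined. In the averaged comparison it was 0, and 1 (Gria2) with the replicate block, with the block among neurospheres alone and with arrays centred. Pairing by number changed no other call of a receptor. The labels pair no arrays, and between origins the block joins them by number alone. The added constant of 1 or 64 moved the described SP differences of Grm5 to -7.40 or -5.68 for line 3447 and -7.47 or -5.68 for line 4346.

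Small differences that did not pass changed sign. With arrays centred these were the interactions of Gria2 (-0.18), Gria4 (-0.023) and Grin3a (-0.093) and the line difference of Gria4 (-0.33). With the mean of probe sets they were the Gria4 interaction (-0.0042) and the Grm5 line difference (-0.17). Without the 2 arrays that stand apart they were the interactions of Gria2 (-0.0028) and Grin3a (-0.27), the line differences of Grm5 (-0.37), Gria4 (-0.21) and Grin3a (-0.13), and Gria3 between SP and non-SP in line 3447 (0.0050). Leaving out 1 array gave -0.44 to 0.0050 for Gria3 in line 3447. For SP against non-SP in neurospheres it gave -0.10 to 0.42 for Grm3, -2.15 to 0.70 for Gria3 and -0.42 to 0.034 for Grik5. Interactions ran from -0.30 to 0.64 for Gria2, from -0.85 to 2.00 for Gria3 and from -0.27 to 0.53 for Grin3a. Grik5 by origin ran from -0.11 to 0.48, and line differences from -0.22 to 0.26 for Grm5, from -0.072 to 0.28 for Gria4 and from -0.032 to 0.73 for Grin3a. The described 4346 SP difference of Gria2 ran from -0.78 to 0.16. The causes were not tested.

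Over all genes, the comparison of the lines called 55 higher and 142 lower genes, but 23 and 344 with arrays centred, 45 and 80 with an added constant of 1, 27 and 89 with the compared groups alone and 20 and 52 without the 2 arrays; leaving out 1 array gave 105 to 332 in all. Testing each probe set gave 114 and 202 probe sets there, and 2143 and 1838 for non-SP cells by origin, against 2310 genes. The fractions of line 3447 differed in 1 gene, with 0 to 18 under the alternatives, those of neurospheres in 2, with 0 to 7, and the interaction called 0 to 1. Signals of the tumour cells for Grm5, and of Grm7 and Gria1 everywhere, lie near the bottom of the scale, where these arrays give no order.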
